A study of Rattus norvegicus with 48 samples.

Results

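Cacybp, Ahsa1 and the Bag genes encode cytosolic proteins that work with the heat shock chaperones, and Calr and Canx encode 2 chaperones of the endoplasmic reticulum (ER). Their mRNA was measured by RNA-Seq in cerebral endothelial cells (CECs) of fed and fasted rats. The 10 genes were listed by name, and the list was made because Cacybp was known to be lower on each day of fasting in these samples, so that the comparisons with fed rats below are a description of the listed genes and carry no p-value for them. Of the 10 genes, 9 had an Ensembl identifier and reads in every sample, among 13050 features tested. Bag5 had no identifier and was not analysed here.

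Male Wistar-Han rats were fed ad libitum (AL rats) or had no food for 1 day (F1 rats), 2 days (F2 rats) or 3 days (F3 rats). CECs were isolated from the cerebral cortex by magnetic sorting, with CD11b-positive cells removed and CD31-positive cells retained. Each isolation used 4 rats, and tissue from 2 cortices was pooled before digestion. Each group had 3 samples, here called i, j and k, from independent experiments, and each of the 12 samples was deposited as 4 technical replicates. For F1 sample k, replicate d carries labels of both 1 and 2 days. It was kept in F1 by its title, and leaving it out changed the Cacybp difference between F1 and AL rats from -0.85 to -0.86 on the log2 scale.

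Many newly made and damaged proteins of the cytosol are folded by HSP70 and HSP90, whose work cycle is set by co-chaperones. The AHSA proteins stimulate the ATPase of HSP90. Most BAG proteins bind HSP70 through a shared domain and promote its release of nucleotide. CACYBP (calcyclin-binding protein, also called SIP) binds the ubiquitin ligase SIAH1 and is related to the HSP90 co-chaperone SGT1. Calreticulin, encoded by Calr, and calnexin, encoded by Canx, are calcium-binding lectins that retain newly made glycoproteins in the ER until they are folded. Heat shock genes are known targets of HSF1, which binds inverted repeats of GAA, whereas many ER chaperone genes are known targets of the unfolded protein response through the ER stress element.

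The RefSeq promoter table for the GRCr8 assembly, which is not the build of the count files, had an entry for 9 of the 10 genes, all but Bag4. The 250 bases before the start site are shown for the 4 genes in which a searched motif was found, because they place the cytosolic and the ER genes side by side, with the motif in capitals and each sequence on the strand of its gene. Cacybp lies at chr13:74981240-74981489 (minus strand), Bag3 at chr1:192533210-192533459 (plus strand), Calr at chr19:40213117-40213366 (plus strand) and Canx at chr10:35157858-35158107 (minus strand).
Cacybp: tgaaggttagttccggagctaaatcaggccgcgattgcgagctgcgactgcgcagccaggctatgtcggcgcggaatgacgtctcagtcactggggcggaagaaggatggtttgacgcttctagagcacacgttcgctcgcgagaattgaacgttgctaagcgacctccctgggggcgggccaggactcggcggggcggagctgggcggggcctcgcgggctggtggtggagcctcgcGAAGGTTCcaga
Bag3: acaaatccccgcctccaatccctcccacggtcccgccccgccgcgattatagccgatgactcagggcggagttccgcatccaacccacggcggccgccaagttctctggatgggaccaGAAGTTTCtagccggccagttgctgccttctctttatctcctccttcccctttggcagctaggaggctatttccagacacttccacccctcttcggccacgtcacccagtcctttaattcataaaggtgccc
Calr: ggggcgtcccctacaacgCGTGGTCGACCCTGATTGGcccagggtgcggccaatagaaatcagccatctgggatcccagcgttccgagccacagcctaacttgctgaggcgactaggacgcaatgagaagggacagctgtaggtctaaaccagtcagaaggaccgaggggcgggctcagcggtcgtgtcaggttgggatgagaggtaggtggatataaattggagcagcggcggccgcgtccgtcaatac
Canx: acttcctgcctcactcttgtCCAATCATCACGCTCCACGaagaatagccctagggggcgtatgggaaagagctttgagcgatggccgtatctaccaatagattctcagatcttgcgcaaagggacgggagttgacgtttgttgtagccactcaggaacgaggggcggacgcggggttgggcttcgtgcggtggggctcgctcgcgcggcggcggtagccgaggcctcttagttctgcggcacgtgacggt

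The capitals in Cacybp and Bag3 mark a heat shock element core of 2 inverted units (GAANNTTC or TTCNNGAA, searched on both strands), which began 12 bases before the start site in Cacybp and 132 bases before it in Bag3. Of 33469 rat promoters of this length, 13.5% held such a core, so that it was a common match. The capitals in Calr and Canx mark an ER stress element, 232 and 230 bases before the start site, which 0.0657% of the promoters held on either strand. The promoters of Ahsa1, Bag1, Bag2, Bag5 and Bag6 held neither motif, nor did that of Ahsa2, the paralog of Ahsa1. A match describes the letters of the window, and binding was not measured.

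Cacybp mRNA was lower in each fasted group than in AL rats. Normalized counts, which are reads scaled to a common library size, were 1453.8, 1585.0 and 1781.0 in AL samples i, j and k. They were 816.0, 980.4 and 875.3 in F1 samples, 1068.5, 1048.2 and 833.0 in F2 samples, and 913.2, 788.7 and 663.3 in F3 samples. All 9 fasted samples lay below all 3 AL samples. The mean was 1606.6 ± 165 in AL rats (SD, n = 3 in each group), as compared to 890.6 ± 83.3, 983.2 ± 131 and 788.4 ± 125 in the F1, F2 and F3 groups. Cacybp was thus at 55.4%, 61.2% and 49.1% of its AL level after 1, 2 and 3 days. As a log2 fold change (LFC) against AL rats, this was -0.85 ± 0.13 (SE) in F1, -0.71 ± 0.13 in F2 and -1.03 ± 0.13 in F3 rats. Between 668 and 1603 reads per sample stand behind these values. In sorted cells, fewer cells of a type and less RNA per cell cannot be told apart.

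Ahsa1, the HSP90 ATPase activator, was also lower in the fasted groups. Its normalized counts were 2384.1, 2851.0 and 2758.8 in AL samples. The F1 samples had 1590.4, 2044.9 and 1740.5, the F2 samples 1940.6, 2002.2 and 1626.9, and the F3 samples 1753.1, 1521.6 and 1402.0. As for Cacybp, no fasted sample reached the lowest AL sample, and F3 sample k was the lowest of the 12. The means were 2664.6 ± 247, 1791.9 ± 232, 1856.6 ± 201 and 1558.9 ± 179 in AL, F1, F2 and F3 rats (SD, n = 3), which put Ahsa1 at 67.3%, 69.7% and 58.5% of its AL level. The LFC was -0.57 ± 0.11 in F1, -0.52 ± 0.11 in F2 and -0.77 ± 0.12 in F3 rats.

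Ahsa2 encodes the closest relative of AHSA1 and was examined whatever its values. It had 1238.5, 1370.3 and 1231.1 normalized counts in AL samples and 893.7, 809.5 and 910.5 in F3 samples. The groups did not overlap, and Ahsa2 fell in F3 rats (LFC -0.56 ± 0.11, edgeR adjusted p = 0.00407) and in F1 rats (LFC -0.41 ± 0.11, edgeR adjusted p = 0.0365). In F2 rats it did not pass the test (LFC -0.34, edgeR adjusted p = 0.171). The F1 call was lost without AL sample i, j or k (LFC -0.43, -0.36 and -0.44) or without F1 sample j or k (LFC -0.39 and -0.36), with edgeR adjusted p between 0.0469 and 0.138 over the 6 samples left out in turn. The counting removed reads that matched more than once, so that stretches shared by Ahsa1 and Ahsa2 would be counted for neither.

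**Figure D1:**
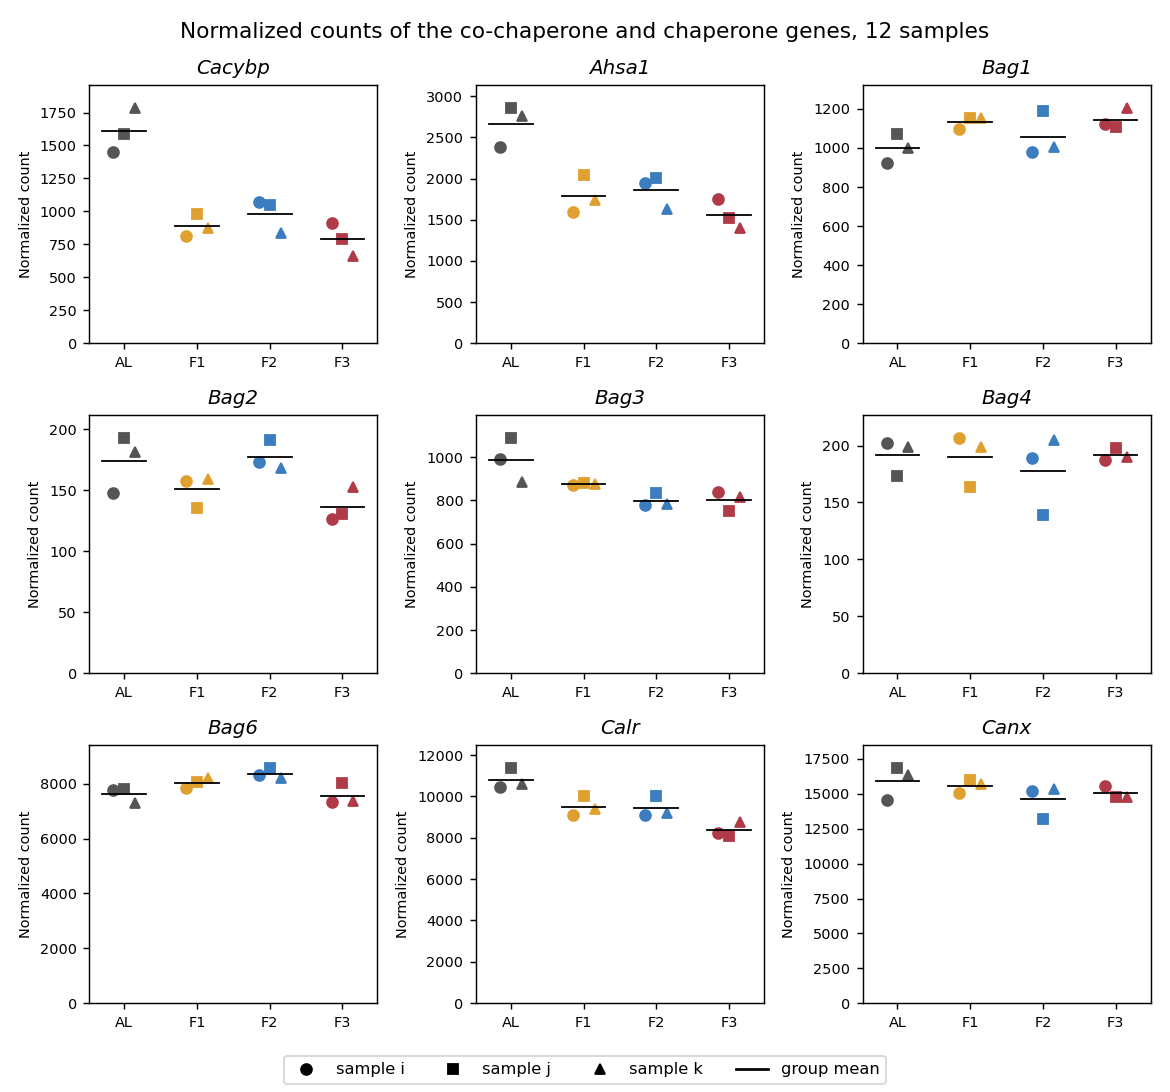
Normalized counts (vertical axes, from 0) of the 9 measured genes in AL, F1, F2 and F3 rats, with 1 point per sample (circle, i; square, j; triangle, k) and a line at the group mean. In Cacybp and Ahsa1 all fasted samples lie below all AL samples, while the groups overlap for Bag4 and Canx.

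The Bag genes did not move as one group. Bag3, the stress-induced BAG protein of selective autophagy, had 989.2, 1086.4 and 886.6 normalized counts in AL samples. It had 872.9, 880.6 and 873.3 in F1 samples, 777.8, 835.2 and 781.9 in F2 samples, and 838.1, 748.9 and 813.2 in F3 samples. Every fasted sample was below the lowest AL sample, although AL sample k was only slightly above the F1 samples. The F1 samples were nearly equal, with a coefficient of variation of 0.495%, as compared to 10.1% in AL rats. The LFC of Bag3 was -0.17 ± 0.08, -0.31 ± 0.08 and -0.30 ± 0.08 in F1, F2 and F3 rats.

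Bag1, an early described nucleotide exchange factor of HSP70, was the gene with the highest LFC in F1 and in F3 rats. Its AL samples had 923.8, 1071.4 and 1001.1 normalized counts, its F1 samples 1095.5, 1155.9 and 1154.2, its F2 samples 981.3, 1189.9 and 1003.4, and its F3 samples 1123.9, 1106.9 and 1202.4. All F1 and F3 samples lay above the AL samples, by a margin that was small beside the AL range, while F2 samples overlapped with them. The LFC was 0.19 ± 0.09 in F1, 0.08 ± 0.09 in F2 and 0.20 ± 0.09 in F3 rats. Without F2 sample j, the F2 value was -0.01.

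Bag2 and Bag4 had the fewest reads of the 9 genes. BAG2 inhibits the ubiquitin ligase CHIP, and Bag2 had a mean of 174.0 ± 23.1 normalized counts in AL, 150.8 ± 13.2 in F1, 177.7 ± 11.99 in F2 and 136.5 ± 14.4 in F3 rats (SD, n = 3), each fasted group overlapping with AL rats. Bag4, which encodes a protein that binds death receptors of the TNF family, had means of 191.6, 189.7, 177.5 and 191.7, and its LFC stayed between -0.11 and 0.00 with an SE of 0.15. F2 sample j had the lowest Bag4 value, 138.7, and F1 sample j the next, 163.9.

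BAG6 hands tail-anchored proteins to the membrane insertion machinery and directs misplaced ones to degradation. Bag6 had 7606.1 ± 285 normalized counts in AL, 8036.9 ± 184 in F1, 8354.0 ± 186 in F2 and 7566.1 ± 402 in F3 rats (SD, n = 3). The F1 and F2 samples lay above the AL samples. Of the F3 samples, i and k (7319.8 and 7348.7) lay within the AL range of 7277.5 to 7788.5 and j (8029.8) above it. The LFC was 0.08, 0.14 and -0.01, each with an SE of 0.07. With total counts in place of TMM scaling, the F1 value was 0.02.

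The 2 ER lectins are described in turn and were not tested against each other. Calr had 10444.7, 11360.8 and 10601.8 normalized counts in AL samples, 9079.9, 10003.9 and 9412.2 in F1 samples, 9110.6, 10024.1 and 9209.0 in F2 samples, and 8227.5, 8102.4 and 8776.6 in F3 samples. No fasted sample reached the AL samples, and the F3 samples were the lowest 3 of the 12. Its mean was at 87.9%, 87.5% and 77.5% of the AL level, with an LFC of -0.19 ± 0.07, -0.19 ± 0.07 and -0.37 ± 0.07 in F1, F2 and F3 rats. Canx had means of 15903.7 ± 1187, 15570.1 ± 497, 14601.7 ± 1217 and 15034.7 ± 451 in AL, F1, F2 and F3 rats (SD, n = 3). Its groups overlapped, and its LFC of -0.03, -0.12 and -0.08 stayed within 1.5 times its SE of 0.08. The 95% interval of the Canx LFC was -0.26 to 0.10 in F3 rats, and that of Calr was -0.53 to -0.21. The intervals overlap.

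**Figure D2:**
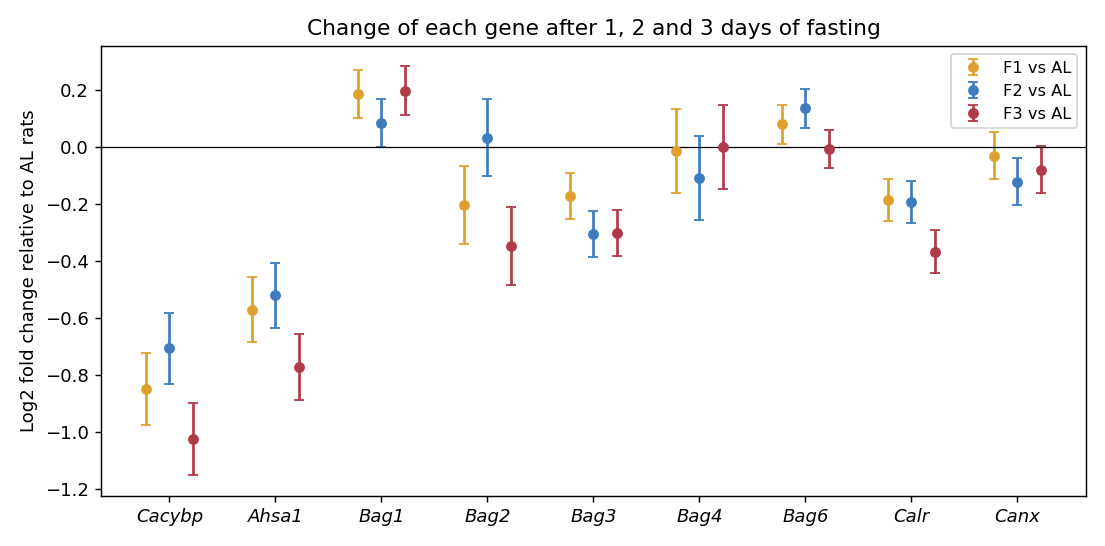
Log2 fold change relative to AL rats (vertical axis) of each gene after 1, 2 and 3 days of fasting, with bars of 1 SE from the edgeR model and n = 3 samples per group. Cacybp has the lowest value on each day (-0.85, -0.71 and -1.03), followed by Ahsa1, and Bag1 is above 0 on each day, although its F2 value is -0.01 without F2 sample j.

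With an adjusted p of at most 0.05 as the threshold, 2 of the 9 genes (Cacybp and Ahsa1) were lower in F1 rats, where 6.56% of all features passed in either direction. In F2 rats 1 gene (Cacybp) passed, as compared to 0.858% of all features, and in F3 rats 4 genes (Cacybp, Ahsa1, Bag3 and Calr) passed, as compared to 12.05%. In F1, F2 and F3 rats, 6, 5 and 5 of the 9 genes did not overlap with AL rats, and 28.7%, 15.5% and 35.6% of all features did not. The median LFC of the 9 genes was -0.17, -0.12 and -0.30, beside -0.00, -0.01 and -0.01 over all features. As Cacybp was picked from these comparisons and all 3 share the same AL samples, nothing is read from these counts. In F2 rats the Cacybp call was lost without AL sample k (LFC -0.63) or F2 sample k (LFC -0.60), and Ahsa1 passed without AL sample i (LFC -0.59). In F3 rats Bag3 no longer passed without AL sample i or j (LFC -0.30 and -0.24) or without F3 sample i, j or k (LFC -0.34, -0.26 and -0.32).

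The days of fasting were then compared with each other. Cacybp was picked by the comparisons with AL rats and not by those between days. Both use the same F1, F2 and F3 samples, so that the comparisons between days are not independent of the choice. From F1 to F2 rats, from F2 to F3 rats and from F1 to F3 rats, 0 of the 9 genes passed the threshold by edgeR or by DESeq2, where edgeR called 1.43%, 5.94% and 0% of all features. At an unadjusted p under 0.05, edgeR gave 0, 4 and 1 of the 9 genes, beside 2252, 2871 and 579 of the 13050 features. The order of the Cacybp means was AL, F2, F1 and F3 from highest to lowest, and the 3 fasted groups overlapped. Cacybp differed between F2 and F1 rats by an LFC of 0.14 ± 0.13 (edgeR adjusted p = 0.611), with a 95% interval of -0.13 to 0.42. Between F3 and F2 rats the LFC of Cacybp was -0.32 ± 0.13 (edgeR adjusted p = 0.160), with an interval of -0.59 to -0.04 that is not adjusted for the number of genes. Between F3 and F1 rats it was -0.18 ± 0.13 (edgeR adjusted p = 0.996), with an interval of -0.45 to 0.10. A further fall from the first to the third day was therefore not shown, and the interval does not exclude one of 0.45 on the log2 scale.

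The other genes below an unadjusted p of 0.05 between F3 and F2 rats were Bag2, Ahsa1 and Calr, all lower in F3. Bag2 had 173.4, 191.2 and 168.4 normalized counts in F2 samples and 126.2, 130.3 and 152.9 in F3 samples, which did not overlap. Its LFC was -0.38 ± 0.14 (edgeR adjusted p = 0.119). The LFC of Ahsa1 was -0.25 ± 0.12 (edgeR adjusted p = 0.217) and that of Calr was -0.18 ± 0.07 (edgeR adjusted p = 0.182). Calr was also lower in F3 than in F1 rats, by an LFC of -0.18 ± 0.07 that did not pass (edgeR adjusted p = 0.996). Canx differed by 0.04 ± 0.08 between F3 and F2 rats (edgeR adjusted p = 0.809), and Bag3 by 0.00 ± 0.08 (edgeR adjusted p = 0.986).

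Ahsa1 followed Cacybp from sample to sample. Symbols were at hand for 2043 of the 13050 features, in alphabetical order up to Ccng1 with few exceptions. The ranking by likeness therefore covers only such genes, and the HSP70, HSP90 and HSP40 chaperones were outside it. Among 1263 genes with a symbol and a mean of at least 100 normalized counts, Ahsa1 had the highest Pearson r with Cacybp on log2 CPM (counts scaled to the size of the library), 0.981 over the 12 samples. The AL samples stand apart from the fasted samples in both genes, which raises this value. With the group means subtracted, r was 0.908, the second highest of the 1263 genes, behind 0.921 for AABR07021823.1. Over the 12 samples AABR07021823.1 had r = -0.663, so that a high r within groups did not require a like change between groups. F1 sample j, F2 sample i, F2 sample j, F3 sample i and AL sample k were above their group means in both genes, and AL sample i, F1 samples i and k, F2 sample k and F3 sample k were below in both. In AL sample j Cacybp was below and Ahsa1 above the group mean, and in F3 sample j the reverse. The points of each sample share 1 library and its scaling, and no p is given.

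**Figure D3:**
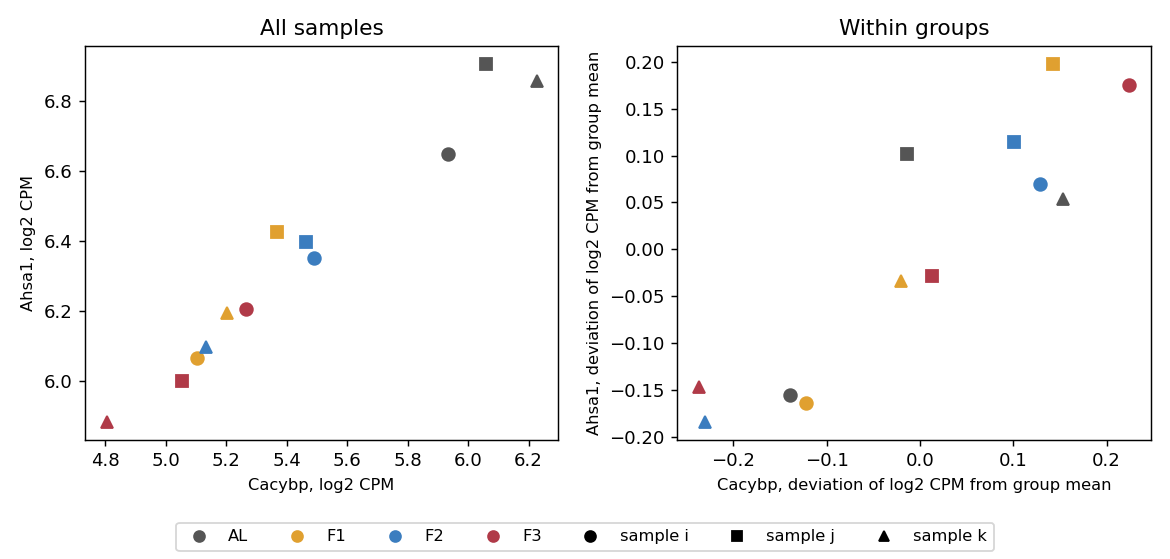
Ahsa1 (vertical axis) against Cacybp (horizontal axis) in the 12 samples, as log2 CPM on the left and as the deviation from the group mean on the right, coloured by group and with 1 symbol per sample letter. The points rise together in both panels, with r = 0.981 on the left and 0.908 on the right.

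Among the ranked genes, the next by r over the 12 samples were Akr1cl (0.955), Arhgef15 (0.945) and Afap1l1 (0.938). Their r was 0.754, 0.541 and 0.597 after the group means were subtracted. ARHGEF15 is a guanine nucleotide exchange factor of endothelial cells. Their means in F3 rats were 81.4% (Akr1cl), 57.9% (Arhgef15) and 56.0% (Afap1l1) of the AL level. With Spearman's rank correlation in place of Pearson's r, 2 of the first 5 genes were again among the first 5. As these genes were found by their likeness to Cacybp, their levels are a description.

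Calr, at 0.818, also ran with Cacybp over the 12 samples, but r was 0.09 once the group means were subtracted. The pair therefore differed from Cacybp and Ahsa1 in that the samples of a group did not share their deviations. Bag3 had r = 0.689 with Cacybp over the samples and -0.06 within groups, and Ahsa2 had 0.858 and 0.296. Within groups, Calr ran with Bag1 (r = 0.881) and opposite to Bag4 (r = -0.850), while Bag1 and Bag4 ran opposite to each other (r = -0.822). Sample j held the highest Calr value in AL, F1 and F2 rats and the lowest Bag4 value in the same groups. Within groups, Calr also ran with the endothelial marker Pecam1 (r = 0.757), for which Cacybp had 0.07 and Ahsa1 0.449. Calr ran opposite to the smooth muscle marker Acta2 (r = -0.677). These pairs were singled out after the values were seen, and no endothelial marker other than Pecam1 was correlated.

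**Figure D4:**
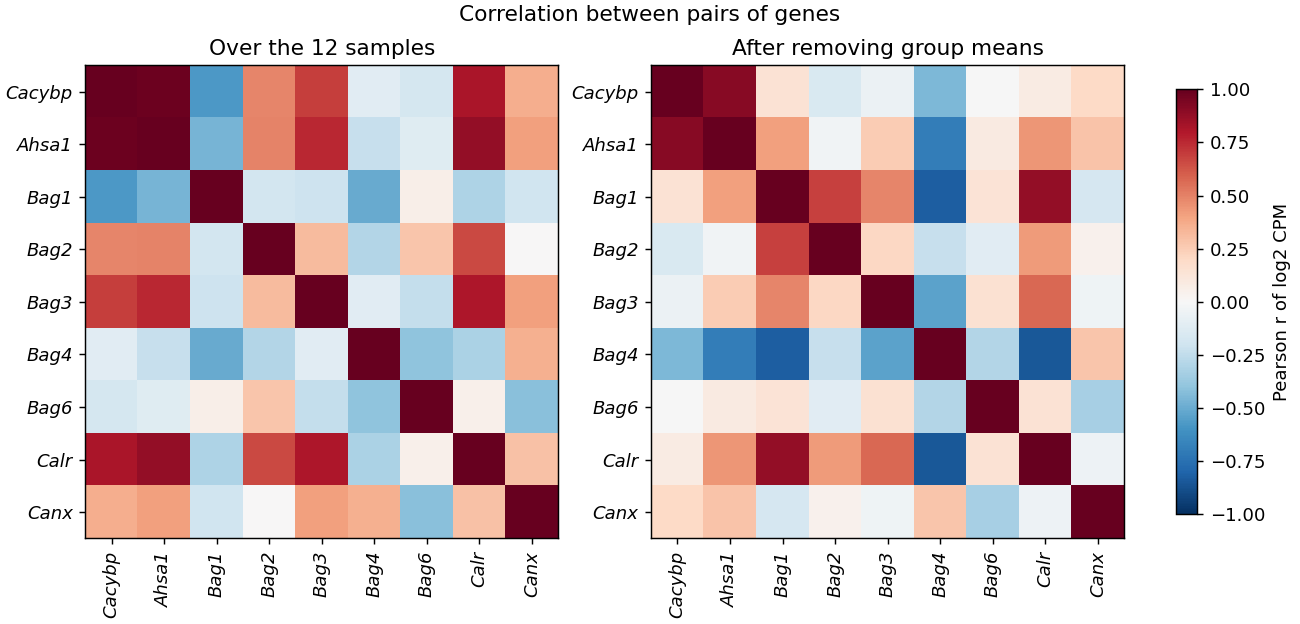
Pearson r of log2 CPM between each pair of the 9 genes (both axes list the genes), over the 12 samples on the left and after subtraction of the group means on the right, with red for positive and blue for negative values. Cacybp and Ahsa1 remain strongly related on the right (0.908), whereas Cacybp and Calr do not (0.818 on the left, 0.09 on the right).

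Lists of genes that act beside these proteins were followed in the comparisons with AL rats, for which symbols were at hand in alphabetical order only, up to Ccng1 with few exceptions. Of 135 genes in 8 lists, 22 could be tested. No gene of the cytosolic HSP70, HSP90 and HSP40 chaperones and heat shock factors (0 of 23) or of the chaperonin TRiC and prefoldin (0 of 14) had an identifier, so that the chaperones themselves were not analysed here. Of 21 other co-chaperones of HSP90 and HSP70, 3 were tested, and Ahsa2 was the 1 that passed, lower in F1 and F3 rats. The 3 tested of 9 partners of BAG6, the 4 of 27 other ER chaperones and folding enzymes, the 6 of 14 ER stress regulators and the 1 of 10 partners of CACYBP gave 0 calls on each day with edgeR or DESeq2. At an unadjusted p under 0.05, edgeR gave 0, 1 and 2 of these genes in F1, F2 and F3 rats. The 0 depends on the fit, as with only the AL and F3 samples in the model 2 ER stress regulators passed in F3 rats, Atf6 (LFC 0.22, edgeR adjusted p = 0.0330) and Atxn3 (LFC -0.22, edgeR adjusted p = 0.0373). Among them Calr3, the paralog of Calr, had a mean of 20.5 normalized counts in AL rats, and its LFC was 0.10, -0.06 and -0.10 (edgeR adjusted p = 0.904, 0.960 and 0.893). The median LFC of the 4 ER chaperone genes was -0.01, -0.02 and -0.07 in F1, F2 and F3 rats.

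Of 17 immediate early and dissociation-response genes, 5 were tested, as their mRNA rises while tissue is digested and sorted, and 1 passed in F3 rats and 0 in F1 and F2 rats by edgeR (2 and 1 at an unadjusted p under 0.05, 1 and 0 by DESeq2). It was Atf3, a stress-induced transcription factor, with 14970.0, 9192.0 and 4837.6 normalized counts in AL samples and 3963.8, 4138.2 and 4663.8 in F3 samples. The AL samples were thus 3 very different values, and the LFC was -1.18 ± 0.35 (edgeR adjusted p = 0.0462). Without AL sample i it was -0.72 and did not pass (edgeR adjusted p = 0.183), and the call was also lost without AL sample j (LFC -1.23) or F3 sample i, j or k (LFC -1.14, -1.17 and -1.26). Without AL sample k it was -1.51. Between days of fasting, edgeR called 1 of the 5 genes higher in F2 than in F1 rats and 1 lower in F3 than in F2 rats. Between F3 and F1 rats it called 0. In F1 rats the Atf3 LFC was -0.87 ± 0.34 and did not pass (edgeR adjusted p = 0.173), and in F2 rats it was -0.16. Cacybp and Atf3 had r = 0.470 over the 12 samples and -0.318 within groups. AL sample i, the highest in Atf3, was the lowest AL sample in Cacybp. With Atf3 and Btg2 as a covariate, chosen after the data had been seen, the Cacybp LFC was -0.90, -0.69 and -1.10 in F1, F2 and F3 rats and that of Ahsa1 was -0.60, -0.51 and -0.81, while Bag3 no longer passed in F3 rats (LFC -0.24).

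The endothelial marker Pecam1, which encodes CD31, had 34031.4 ± 2262 normalized counts over the 12 samples (SD). The 6 of 10 endothelial markers tested did not move in the same direction. Their summed level was 636034 to 681490 in AL, 730487 to 770627 in F1, 731400 to 796718 in F2 and 753125 to 770112 in F3 samples. Every fasted sample was thus above every AL sample, but the sum is weighted towards Slc2a1, and a sum without Slc2a1 was not made. Pecam1, Abcb1a, Abcg2 and Bsg did not pass the threshold against AL rats on any day. Slc2a1, the glucose transporter GLUT1 and the most abundant of the 6, had means of 283812.7, 383177.8, 375490.6 and 406911.1 in AL, F1, F2 and F3 rats and was higher in F1 and F3 rats (edgeR adjusted p = 0.0109 and 0.00194). Slco1a4, an organic anion transporter, had means of 81416.5, 63483.4, 75120.3 and 60543.6 and was lower in F1 and F3 rats (edgeR adjusted p = 0.0323 and 0.00774). The study itself reports Slc2a1 and Slco1a4 among the transporter genes that fasting changed in these cells. The part of these shifts in the levels of the chaperone genes was not tested. The summed level of 2 of 6 pericyte markers, Abcc9 and Anpep, ranged from 1762.2 to 4160.9 in AL, 1846.5 to 2098.5 in F1, 2185.5 to 4508.8 in F2 and 1472.9 to 4143.0 in F3 samples, and those of 2 of 6 astrocyte markers from 4434.3 to 8820.6, 4397.2 to 5494.2, 6345.6 to 7819.7 and 3866.7 to 6964.3. The 6 of 9 microglial markers tested summed to between 56.7 and 134 per sample, the 1 neuronal marker of 5 to between 3.04 and 14.7, the 1 smooth muscle marker of 4 to between 126 and 366 and the 1 red blood cell marker of 3 to between 36.1 and 110. No oligodendrocyte marker (0 of 5) had an identifier. With Abcc9 and Anpep as a covariate, also chosen after the data had been seen, the Cacybp LFC was -0.88, -0.69 and -1.03 in F1, F2 and F3 rats. Cacybp had r = 0.01 with Abcc9 and 0.118 with Anpep over the 12 samples, and -0.224 and -0.115 within groups.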

How the data were processed

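The deposited values are raw counts of reads per gene, as whole numbers without normalization, in 48 files. After trimming and quality filters, the authors mapped reads with STAR (Rnor_6.0, Ensembl annotation), dropped those with several matches and counted exonic reads with HTSeq 0.5.3. The libraries were strand-specific, but the strand setting of the counting was not given in the sources used here. The 4 technical replicates of a sample were summed (20718644 to 25960874 reads per sample). The robust quasi-likelihood test of edgeR 4.0.16 (R 4.3.3, TMM scaling) was run on features without a sample at 0 reads, with 12 samples and 4 group means in 1 model. Benjamini-Hochberg adjustment covered all 13050 features, and the threshold was 0.05. SEs and 95% intervals come from this model. Log2 CPM used a prior count of 2. Symbols came from the supplementary tables of the study, for 2043 features. Genes named are the listed genes, the list genes past the threshold against AL rats, Ahsa2, Calr3 and the 5 genes most like Cacybp, of which 1 is not reported here. Pecam1, Abcb1a, Abcg2, Bsg, Abcc9, Anpep and Acta2 are named as cell markers and Btg2 as part of a covariate. AABR07021823.1, Slc2a1, Slco1a4, Atf6, Atxn3, Btg1 and Aarsd1, and single samples, were singled out after the values were seen. The genes and lists were chosen with earlier results of these data known. Alternatives were DESeq2 1.42.0, its size factors, total counts, no filter or at least 10 reads, a fit of 6 samples per comparison, sample letters as a block, removal of each sample in turn, and removal of file d of F1 sample k. The 2 covariates were added after seeing the data.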

Additional observations from a re-analysis of the deposited data

How the results depend on the processing

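Cacybp, Ahsa1, Bag3 and Calr kept a negative LFC in F1, F2 and F3 rats under all 16 alternatives. Cacybp passed the threshold in 16, 13 and 16 of them, Ahsa1 in 16, 6 and 16, and Calr and Bag3 in F3 rats in 16 and 10. As Cacybp was picked from these comparisons and the alternatives refit the same samples, these counts describe only the dependence on the fit. The number of the 9 genes called in F2 rats, 1 in the reported analysis, was 3 with DESeq2, 2 with total counts, no filter, or without file d of F1 sample k, 0 with only the 6 samples compared and 0 to 2 with each sample left out. Over all features, the calls in F2 rats were 359 with DESeq2 and 0 with 6 samples in place of 112. With total counts, no filter, file d removed or the sample letter as a block, they lay between 0 and 359. Those between F2 and F1 rats were 616 with DESeq2 and 56 with 6 samples in place of 186. Those between F3 and F2 rats were 1228 and 262 in place of 775. Between F3 and F1 rats, where 0 features passed (579 at an unadjusted p under 0.05), DESeq2 gave 24, no filter 9 and 6 samples 9. With each sample left out, the calls ranged from 306 to 755 (F1 rats), 34 to 157 (F2 rats), 790 to 1271 (F3 rats), 0 to 139 (F2 and F1 rats), 164 to 691 (F3 and F2 rats) and 0 to 1 (F3 and F1 rats). The lowest of these came without F1 sample j, AL sample k, F3 sample i, F1 sample j and F3 sample i. With the sample letter as a replicate block, 2 of the 9 genes (Cacybp and Ahsa1) were called in F2 rats. Over all features, 108 were called between F2 and F1 rats and 1 between F3 and F1 rats. Atf3 in F3 rats no longer passed with this block (edgeR adjusted p = 0.0515), with no filter or with only the 6 samples compared. Over the 8 alternatives other than the covariates and leaving out samples in turn, its adjusted p by edgeR or DESeq2 was 0.0214 to 0.157. Of 18 pairs of samples with the same letter, 2 had deviations from the group means with r over 0.1 (range -0.02 to 0.139). Whether the letters mark paired samples was not tested. The sign of the LFC of some genes near 0 turned. Without 1 sample, Bag1 in F2 rats went down to -0.01 (without F2 sample j) and Bag2 in F2 rats down to -0.07 (without AL sample i), and Bag4, Bag6 and Canx also crossed 0 on at least 1 day under some alternative. Canx between F3 and F2 rats was -0.054 with the immediate early covariate. With each sample left out, the LFC of Btg1 ranged from -0.28 to 0.12 in F1 and -0.20 to 0.20 in F2 rats, that of Btg2 from -0.21 to 0.26 in F3 rats (each positive without AL sample i) and that of Aarsd1 from -0.082 to 0.10 in F2 rats. The cause of these differences was not tested.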
